A study of Mus musculus with 4 samples.

Results

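NG7 is a small type of nodose neuron with high mean levels of transcripts of the neuropeptide galanin (Gal), the protocadherin Pcdh9 and the peptide gene Tac1. Its members were the cells to which the deposited annotation gives the cluster name NG7. There were 57 of them, among 1459 nodose neurons in 18 NG clusters and 1825 cells in 27 clusters in all, and they were compared library by library with the other 1402 nodose neurons. The study's design text gives 1896 cells, and counts and shares here are of the 1825 in the tables analysed. The cells came from jugular and nodose ganglia of 5-week-old mice in 4 droplet libraries that tag each captured transcript with a unique molecular identifier (UMI). Wild-type C57BL6 mice gave 2 libraries of cells taken without a sort (unsorted 1 and 2). The other 2 libraries (sorted 1 and 2) hold cells picked by fluorescence from Vglut2Cre-Tomato mice. These mice carry the Slc17a6tm2(cre)Lowl allele, which puts Cre under the Slc17a6 (Vglut2) locus, and the reporter Gt(ROSA)26Sortm14(CAG-tdTomato)Hze, which makes every cell that has expressed that Cre, at the time or earlier, red. The labels used here give neither the number nor the sex of the animals in a library, so a spread between libraries may be partly technical.

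Nodose neurons are the placode-derived sensory neurons of the vagus nerve and carry signals from the heart, airways and gut to the brainstem. Many of them release peptides beside glutamate. Galanin acts on G-protein-coupled receptors that mostly dampen neuronal activity, and Tac1 encodes the precursor of substance P and neurokinin A, which act on tachykinin receptors. Protocadherins are adhesion proteins of the cadherin family, and Tmc3 belongs to the transmembrane channel-like family, whose best known members serve mechanotransduction in hair cells.

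On GRCm38 (the build named mm10), Gal lies at chromosome 19, 3409915 to 3414544 on the minus strand, and Tac1 at chromosome 6, 7554879 to 7565834 on the plus strand. Pcdh9 lies at chromosome 14, 93013410 to 93890679 on the minus strand, and Tmc3 at chromosome 7, 83584927 to 83625614 on the plus strand. The promoters of the peptide genes that name the type are shown because both genes are known to respond to cyclic AMP signalling. They are RefSeq windows of 300 bases on GRCm38.p6, chr19:3414495-3414794 on the minus strand for Gal and chr6:7554811-7555110 on the plus strand for Tac1, and capitals mark TGACG or its reverse complement, the core of the cyclic AMP response element:
Gal: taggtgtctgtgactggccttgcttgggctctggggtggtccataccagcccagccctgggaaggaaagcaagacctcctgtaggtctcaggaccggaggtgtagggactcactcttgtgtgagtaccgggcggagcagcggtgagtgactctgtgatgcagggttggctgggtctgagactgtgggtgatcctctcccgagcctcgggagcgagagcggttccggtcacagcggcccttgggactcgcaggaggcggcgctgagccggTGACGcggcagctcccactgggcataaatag
Tac1: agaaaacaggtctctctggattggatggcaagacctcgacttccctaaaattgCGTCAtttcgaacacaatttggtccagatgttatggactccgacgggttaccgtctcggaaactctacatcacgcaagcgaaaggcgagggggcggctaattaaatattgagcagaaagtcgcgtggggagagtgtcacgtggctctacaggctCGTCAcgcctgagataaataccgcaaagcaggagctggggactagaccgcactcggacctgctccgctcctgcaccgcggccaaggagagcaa
The Gal window holds TGACG at 1 place on the gene's own strand, and the Tac1 window at 2 places on the other strand. Of 32851 RefSeq windows of this length, 20.8% hold TGACG on either strand, so its presence alone sets neither promoter apart. The full element TGACGTCA, which contains TGACG, was found in 1.79% of all windows. Of the 15 windows matched to 12 of the 14 genes that stood higher in NG7, 6 held TGACG (windows of Gal, Itm2a, Malat1, Pcdh9 and Tac1). None held the full element, nor the binding motif of MEF2 factors, which 0.557% of all windows hold, and at shares this low 0 of 15 shows no difference. These matches describe the letters of the windows and were not tied to binding.

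NG7 made up 7 of 188 nodose neurons in unsorted 1 (3.72%, exact Clopper-Pearson 95% interval 1.51 to 7.52), 24 of 725 in unsorted 2 (3.31%, 2.13 to 4.89), 14 of 299 in sorted 1 (4.68%, 2.58 to 7.73) and 12 of 247 in sorted 2 (4.86%, 2.54 to 8.33). The intervals cover counting error only. The share was 3.52% ± 0.292 in the unsorted and 4.77% ± 0.124 in the sorted libraries (mean ± SD, n = 2 each), with no overlap between the groups. An exact two-sided permutation test gave p = 0.33, the smallest that 2 libraries against 2 allow. NG7 was thus found in all 4 libraries, and the difference in share was not detectable at this size.

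The 4 libraries held 16147719 to 30778125 UMIs. NG7 cells were shallower than their neighbours, with median UMI counts of 40555, 18314, 22893.5 and 32242 in unsorted 1, unsorted 2, sorted 1 and sorted 2 against 69840, 34970, 54194 and 57556 in the other nodose neurons. They were lower in 4 of 4 libraries, and levels are therefore given per 10000 UMIs of a cell. Sums over marker lists describe the cells and do not place them independently, since the annotation groups cells by these transcripts. The summed level of 4 nodose markers (P2rx2, Hoxb5, Slc17a6, Ntrk2) was 20.5 to 24.8 in NG7 and 15.9 to 17.1 in the other nodose neurons. Of 6 jugular markers, Prdm12, Wfdc2 and Mrgprd had 0 UMIs in all 57 cells, while Pou4f1 had 55, Calca 24 and Prrxl1 16. The jugular list summed to 0.444 to 1.05 in NG7, against 1.19 to 2.54 in the other nodose neurons. Endothelial markers summed to at most 0.307 (Cdh5 had 0 UMIs), immune markers to at most 0.0517 (Cd68 and Lyz2 had 0) and fibroblast markers to at most 0.126 (Lum had 0). Sympathetic markers summed to 1.30 to 2.90 in NG7 against 0.781 to 1.22 in the other nodose neurons, higher in 4 of 4 libraries, and were mostly Th, with Hand2 at 0 UMIs. Schwann cell markers summed to 1.30 to 5.40, against 3.58 to 4.15 in the other nodose neurons, with none at 0 over all cells. Satellite glial markers differed by library kind: their sum in NG7 was 41.0 and 21.1 in the unsorted and 0.668 and 0.548 in the sorted libraries, and in the other nodose neurons 24.6, 22.9, 2.64 and 1.11. Most of it was Apoe, with 1891 UMIs over the 57 cells, while the glial factor Sox10 had 4. Between the 4 libraries, 1 cell barcode was shared.

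Gal was at 3.26, 6.35, 8.71 and 6.54 UMIs per 10000 in NG7 of unsorted 1, unsorted 2, sorted 1 and sorted 2. In the other nodose neurons of the same libraries it was at 0.530, 0.383, 2.28 and 1.90, so the lowest NG7 value lay above the highest of the others. Averages below leave out unsorted 1, which held only 7 NG7 cells, under the minimum of 10 set for a library. On that base Gal was at 7.20 ± 1.31 in NG7 against 1.52 ± 1.0 (mean ± SD, n = 3 libraries), a difference of 1.79 ± 0.55 in log2(mean + 1), the scale of every log2 difference given here, which understates folds of low genes. The annotation groups cells by these very transcripts, so this and every difference between NG7 and another type is a description and has no test. NG7 had the highest mean Gal level of the 18 nodose types over 4 libraries (6.22 ± 2.24), followed by NG14 (4.58 ± 3.76), within a spread that mixes both library kinds. By library, in the order above, Gal in NG14 was at 1.20, 1.61, 8.76 and 6.75. NG7 was thus higher than NG14 in both unsorted libraries and close to it in both sorted ones. NG11 (1.54 ± 1.16) and NG13 (1.47 ± 1.87) came next, and the other 14 types lay at 0.998 or less.

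Tac1 was less even. Its level in NG7 was 3.81, 1.90, 8.02 and 7.58 per 10000 in the 4 libraries, in the same order, against 0.584, 0.659, 1.10 and 1.27 in the other nodose neurons. NG7 was above them in every library, and the sorted libraries were the high ones. The mean was 5.83 ± 3.42 against 1.01 ± 0.316, a log2 difference of 1.61 ± 0.70. NG7 ranked the third among nodose types, after NG5 (26.9 ± 9.78) and NG3 (6.43 ± 2.26). Its own 4-library mean of 5.33 ± 2.97 lay within the spread of NG3, which mixes both library kinds. By library, NG3 was at 3.93, 5.13, 8.53 and 8.15, above NG7 in each of the 4. Giving every nodose type equal weight in the comparison group, so that the few cells of NG5 and NG3 count as much as the large types, lowered the log2 difference of Tac1 to 0.84.

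Pcdh9 was the most even marker. It was at 5.49, 6.98, 6.84 and 7.08 per 10000 in NG7 and at 0.948, 0.899, 0.874 and 1.06 in the other nodose neurons. The groups were far apart in each library, and the log2 difference was 2.04 ± 0.06, the highest of all genes. NG4 had a higher mean, 8.54 ± 2.75 against 6.60 ± 0.746 over 4 libraries, within the spread of NG4. By library, NG4 was above NG7 in the unsorted (12.1 and 9.28) and below it in the sorted libraries (5.92 and 6.87). NG1 (2.63 ± 1.64) was the next nodose type.

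Tmc3 marked NG7 as one of a group of types. It was at 2.50, 1.94, 9.05 and 6.76 per 10000 in NG7 and at 0.932, 0.789, 2.19 and 2.55 in the other nodose neurons, a log2 difference of 1.17 ± 0.47. The unsorted NG7 values overlapped those of the other nodose neurons in the sorted libraries. Levels of 5.08 ± 3.80 in NG9, 5.06 ± 3.42 in NG7, 3.86 ± 3.56 in NG6, 3.77 ± 2.09 in NG11, 3.46 ± 1.66 in NG8 and 2.61 ± 0.670 in NG14 lay within a spread that mixes both library kinds. By library, NG7 was above NG6, NG11 and NG14 in each of the 4, and above NG8 in all but unsorted 1. NG9 was above NG7 in the sorted libraries and below it in the unsorted ones. The next type, NG17, was at 0.968 ± 0.855. Against other nodose neurons of like depth (within the interquartile range of NG7 UMI counts in the same library), a comparison added after the data were seen, Tmc3 fell to 0.63, while Gal was at 1.91, Pcdh9 at 1.83 and Tac1 at 1.0. Without sorted 1 it was at 0.92.

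**Figure D1:**
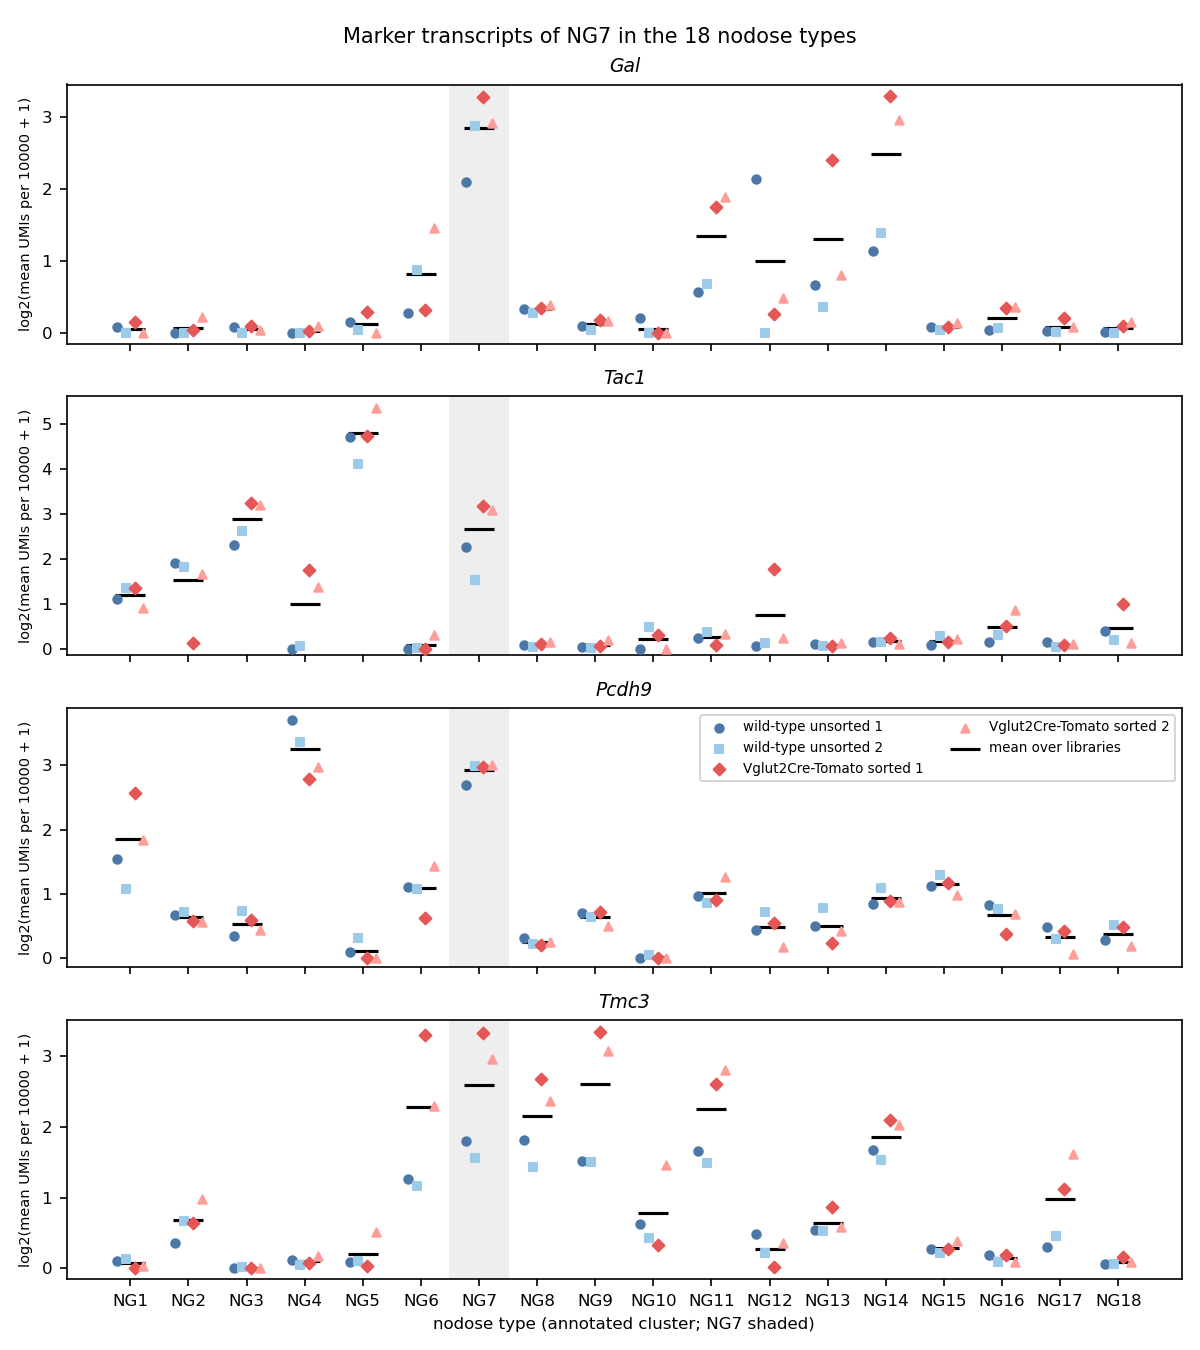
Mean level of Gal, Tac1, Pcdh9 and Tmc3 in each of the 18 nodose types, as log2(mean UMIs per 10000 + 1); points are libraries and black lines their mean over 4 libraries, with NG7 shaded. NG7 has the highest mean of Gal, lies below NG5 and NG3 for Tac1 and below NG4 for Pcdh9, and shares Tmc3 with NG6, NG8, NG9, NG11 and NG14.

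Within NG7 the markers were spread very differently over single cells. Pcdh9 had at least 1 UMI in 57 of 57 cells (100%, exact interval 93.7 to 100) and Tmc3 in 53 (93.0%, 83.0 to 98.1). Gal was seen in 40 cells (70.2%, 56.6 to 81.6) and Tac1 in 28 (49.1%, 35.6 to 62.7), so the median Tac1 level of an NG7 cell was 0. By library, Tac1 had a UMI in 7 of 7 NG7 cells of unsorted 1, 10 of 24 of unsorted 2, 6 of 14 of sorted 1 and 5 of 12 of sorted 2. The median depth of these cells was 40544, 18311.5, 22889.5 and 32231.5 UMIs. With each cell thinned to 10000 UMIs, the counts were 4 of 7, 6 of 24, 5 of 13 and 5 of 12. The part of depth in these shares was not tested. A cell with 0 UMIs is not shown to lack the transcript. In the other nodose neurons, at a higher median depth (42185 UMIs against 24857), the shares were 70.6% for Pcdh9, 63.8% for Tmc3, 37.8% for Gal and 30.5% for Tac1. Endothelial cells, which should lack these genes, gave 3 of 51, 0 of 51, 2 of 51 and 3 of 51 at a median of 9670 UMIs, where 0 of 51 allows up to 5.88%. These cells were all from the unsorted libraries (17 and 34), so they give no background for the sorted ones. Satellite glia (20, 27, 4 and 0 cells in the 4 libraries, median 9930 UMIs) had a UMI of Pcdh9 in 34 of 51 (66.7%), of Tmc3 in 2, of Gal in 3 and of Tac1 in 4. Pcdh9 was thus also seen in satellite glia, whose markers were high in unsorted NG7 and summed to less than 1 in sorted NG7. The Pcdh9 level of NG7 was 5.49 and 6.98 per 10000 in the unsorted and 6.84 and 7.08 in the sorted libraries. The part of glial transcripts in these levels was not tested. With each cell thinned to 10000 UMIs (1 NG7 cell and 17 others were shallower), NG7 kept 100% for Pcdh9, 80.4% for Tmc3, 64.3% for Gal and 35.7% for Tac1, against 38.4%, 43.0%, 20.1% and 13%. Endothelial cells thinned the same way (31 were shallower) gave 0 of 20 for Pcdh9 and Tmc3, which allows up to 15%, and 2 of 20 for each peptide gene, and satellite glia (28 were shallower) 14 of 23 for Pcdh9 (60.9%).

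A few cells held most of the Tac1 transcripts. The 5 cells with most Tac1 UMIs carried 768 of the 962 of NG7 (79.8%), and the 5 with the highest level 67.3% of the level per 10000 summed over cells. For Gal these shares were 58.0% (617 of 1064) and 45.4%, for Tmc3 28.0% (164 of 586) and 40.9%, and for Pcdh9 17.2% (163 of 945) and 18.8%. The highest cell reached 86.2 per 10000 for Tac1 (367 UMIs, in sorted 1) and 61.6 for Gal (308 UMIs, in sorted 1). Leaving out the highest cell of each library lowered the Tac1 means to 1.46, 1.52, 2.01 and 4.52 and the Gal means to 1.62, 5.73, 4.64 and 2.74, in the order of libraries used above. Both genes were found in 22 cells, Gal alone in 18, Tac1 alone in 6 and neither in 11. At 5 or more per 10000, Gal was in 18 cells, Tac1 in 13 and both in 5. Across the 57 cells, Spearman's rho was 0.19 between Gal and Tac1 and 0.37 between Gal and Pcdh9, a description over cells that share libraries and differ in depth.

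**Figure D2:**
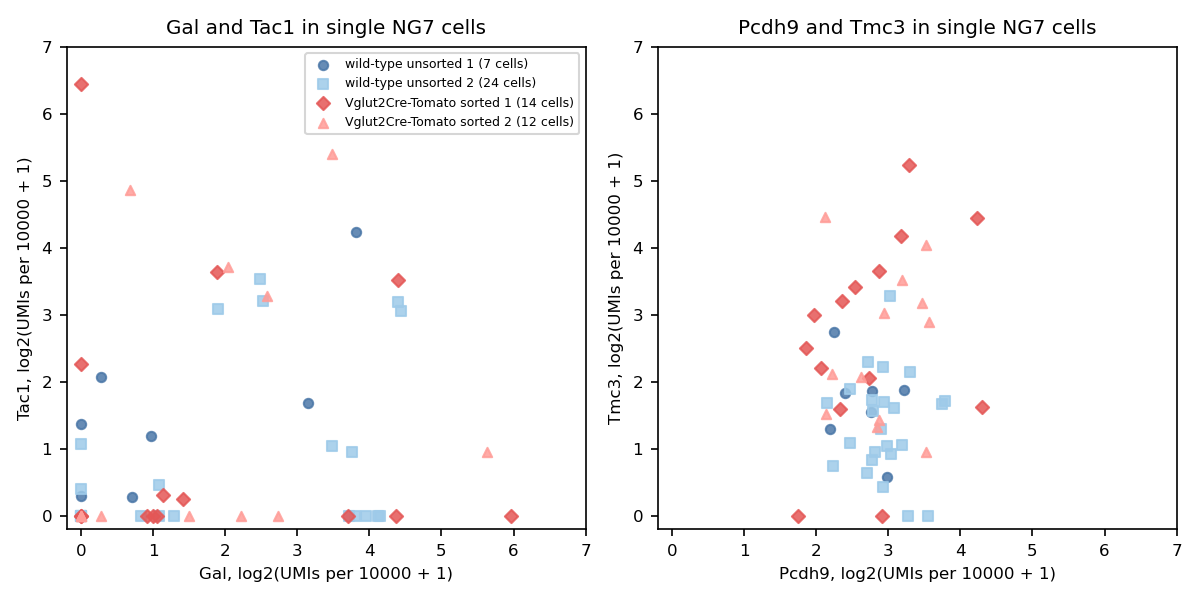
Each point is 1 of the 57 NG7 cells, with its level of Gal against Tac1 (left) and Pcdh9 against Tmc3 (right), both axes as log2(UMIs per 10000 + 1), coloured by library. Pcdh9 is present in every cell, while many cells lie on the zero line of Gal, Tac1 or both.

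Across all genes with a mean above 0.1 per 10000 in NG7 or in the other nodose neurons, 14 of 9193 were at least 1 higher on the log2 scale with the same sign in all 3 libraries (0.152%), and 33 were at least 1 lower (0.359%). The median over all 9193 genes was -0.01. These 14 and 33 genes also differed in the same direction in unsorted 1, and 5 and 10 of them by at least 1 in each of the 4 libraries. Of the 14 higher genes, 8 had their highest mean of all nodose types in NG7 and 13 ranked among the top 3, against 5.24% and 18.6% of all 9193 genes, a rank that their choice as higher genes favours. Of the 33 lower genes, Mt3 and Tagln3 had their lowest mean in NG7 and 9 ranked among the lowest 3, against 3.25% and 14.6% of all genes. Against other nodose neurons of like depth 7 genes were higher and 22 lower, of which 6 and 19 were among those 14 and 33.

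Beside the 4 markers, the higher genes included regulators and small neuronal proteins. Mef2c, a MADS-box transcription factor of activity-dependent genes, was at 5.32, 7.81, 4.32 and 3.72 in NG7 of the 4 libraries against 0.520, 0.772, 0.626 and 0.930, a log2 difference of 1.77 ± 0.52. NG7 was its highest nodose type, just above NG11 (5.29 ± 1.81 against 5.18). Itm2a, which encodes an integral membrane protein, was at 3.22, 2.19, 8.42 and 9.27 against 0.947, 0.888, 1.36 and 1.47 (1.60 ± 0.73), again highest in NG7. Pcp4, a small regulator of calmodulin, was high throughout nodose neurons and higher in NG7, at 25.9 ± 2.67 against 9.85 ± 0.424 (1.31 ± 0.17), and Sparcl1, a secreted matrix protein, was at 2.25 ± 0.488 against 0.494 ± 0.108 (1.11 ± 0.23, but 0.98 with every nodose type weighted equally and 0.79 against cells of like depth). Zbtb20, a zinc finger repressor (1.06 ± 0.10), Rprm (1.07 ± 0.06), the C1q-related C1ql2 (1.07 ± 0.26), Stmn4 (1.04 ± 0.24) and the nuclear RNA Malat1 (549 ± 105 against 264 per 10000, 1.04 ± 0.22) were also highest in NG7. These last 5 lie outside the naming rule and were picked after their values were seen. Against other nodose neurons of like depth, none of these 5 was past the fold. The 6 of the 14 higher genes that stayed past it were Gal, Tac1, Pcdh9, Mef2c, Itm2a and Pcp4.

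The lower genes were led by a secreted glycoprotein and a sodium pump regulator. Fstl1 was at 3.84, 2.08, 3.34 and 4.47 in NG7 against 20.1, 19.1, 22.7 and 20.7 (-2.38 ± 0.36), and Fxyd2 at 0.930, 0.407, 1.06 and 0.639 against 8.4, 7.17, 8.90 and 6.08 (-2.30 ± 0.22). No NG7 value of either gene came near the other nodose neurons. The peptide gene Cartpt, known for its part in satiety, was at 0.498 ± 0.388 against 4.87 ± 2.18 (-1.94 ± 0.24). The tetraspanin Cd9 followed at -1.70 ± 0.50 and the semaphorin and VEGF co-receptor Nrp2 at -1.68 ± 0.10. Mt3, a metallothionein, was at -1.64 ± 0.22, Vat1l at -1.58 ± 0.13 and Ret, the signalling receptor of GDNF family ligands, at -1.54 ± 0.27. Counted from the highest mean, NG7 ranked 13 of 18 nodose types for Fstl1, Fxyd2 and Cartpt, so other types were lower still. Its rank was 14 for Nrp2, 15 for Vat1l, 16 for Cd9, 17 for Ret and 18, the lowest, for Mt3.

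**Figure D3:**
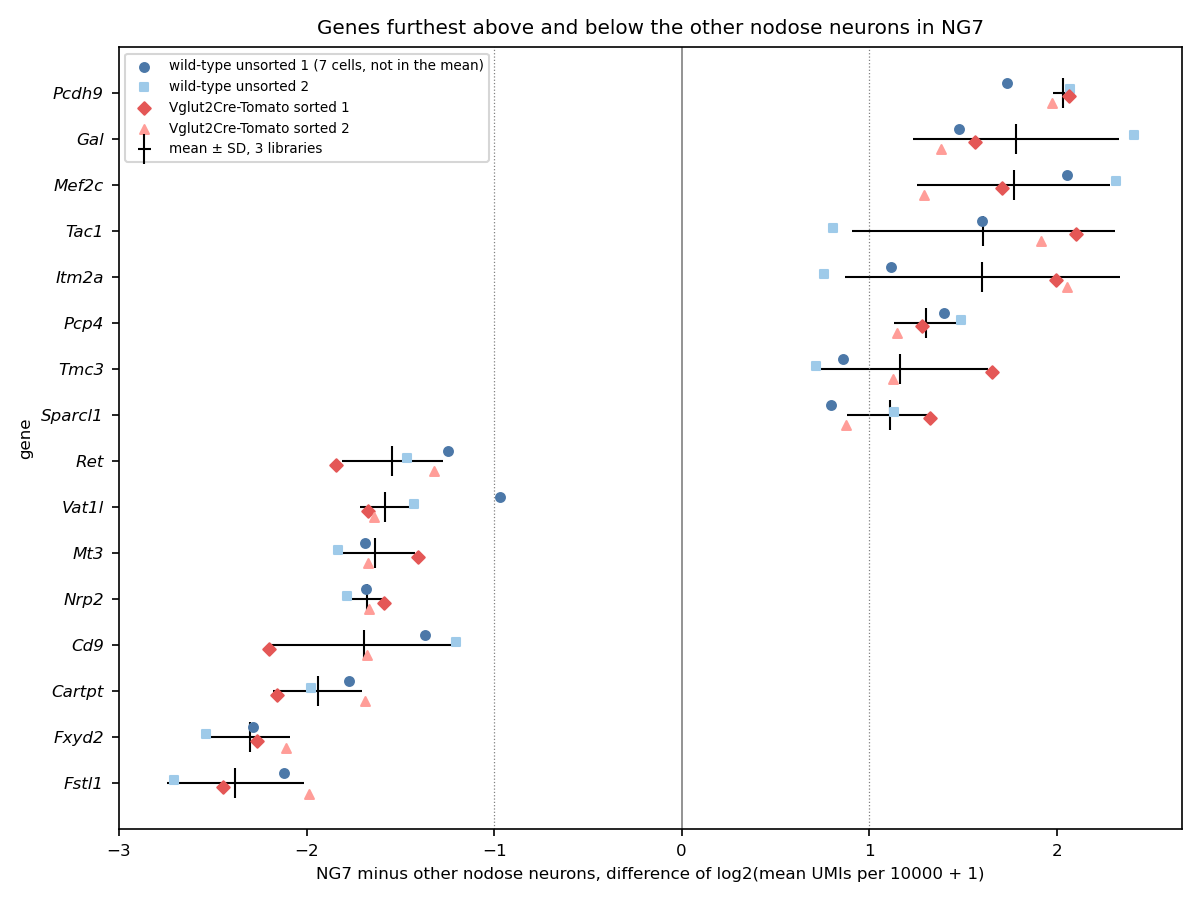
Difference between NG7 and other nodose neurons in log2(mean UMIs per 10000 + 1) for the 8 genes furthest above and the 8 furthest below; coloured points are libraries, black bars the mean ± SD of 3 libraries, dotted lines a difference of 1. Pcdh9 varies least over those 3 libraries (2.04 ± 0.06) and is at 1.74 in unsorted 1, which is not in the mean. Tac1 and Itm2a are lowest in unsorted 2.

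Of 23 lists, 10 held a gene past a difference of 1, and the TRP, sodium and potassium channel genes among these were all lower in NG7. Among 12 neuropeptide genes, Gal and Tac1 were higher and Cartpt lower (median of the list -0.17). Of 9 TRP channels, the irritant receptor Trpa1 (0.0107 ± 0.00942 against 1.14 ± 0.217 per 10000, -1.08) and the capsaicin receptor Trpv1 (0.0514 ± 0.0770 against 1.12 ± 0.224, -1.01) were lower. Each had a UMI in 4 of 57 NG7 cells (7.02%), against 32.1% and 57.8% of other nodose neurons. These shares were not thinned, and NG7 cells were shallower (median 24857 UMIs against 42185), which lowers their share. Of 13 sodium channel genes only Scn10a, the Nav1.8 channel of nociceptors, was past the fold (0.0672 ± 0.0157 against 1.44 ± 0.10, -1.20 ± 0.08), and of 35 potassium and HCN channels only Kcnq3, an M-current subunit (-1.05 ± 0.34). Both were lower. With every type weighted equally Trpa1 was at -0.77, Trpv1 at -0.66 and Kcnq3 at -0.86, and against cells of like depth Trpa1 was at -0.99, Trpv1 at -0.95 and Kcnq3 at -0.92. Without unsorted 2 Kcnq3 was at -0.86, and without sorted 1 Trpv1 was at -0.90. Counted from the highest mean, NG7 ranked 14 of 18 nodose types for Trpa1, 12 for Trpv1 and 13 for Scn10a and Kcnq3. Other types thus had lower means of each. The highest types were NG15 for both TRP genes, NG18 for Scn10a and NG13 for Kcnq3.

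Receptor genes past the fold were all lower. Of 2 serotonin receptor genes Htr3a, the ion-channel subunit, was lower, at 1.22, 0.704, 2.06 and 3.20 in NG7 against 5.06, 5.66, 6.31 and 5.31 (-1.27 ± 0.69). The gap was widest in unsorted 2, and it was -0.92 without that library and -0.94 against cells of like depth. Of 7 neurotrophic factor receptors Ret and Ngfr, the low-affinity neurotrophin receptor (4.10 ± 0.674 against 10.2 ± 0.862, -1.14 ± 0.28), were lower. Ngfr was not past the fold with types weighted equally (-0.90) or at like depth (-0.86). For Htr3a and Ngfr, NG7 ranked 11 of 18 nodose types from the highest mean, and NG17 was the highest for both. Of 16 peptide processing and dense-core vesicle genes the synaptotagmin Syt4 was lower (-1.07 ± 0.12, and -0.84 with types weighted equally), and 46 axon guidance and adhesion genes split between Ntng1 (1.06 ± 0.32, but 0.87 without unsorted 2, 0.97 with types weighted equally and 0.76 at like depth) and Nrp2. Tmc3 was the only one of 8 mechanosensitive and acid-sensing channels past the fold, and Pcdh9 the only one of 17 cadherins and protocadherins. The other 13 lists held none.

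Several genes central to nodose neurons were not past the fold. P2rx2, the ATP-gated channel of visceral afferents, was at 6.30, 4.62, 12.9 and 10.5 per 10000 in NG7 against 4.10, 3.34, 5.5 and 5.30, a log2 difference of 0.78 ± 0.37. NG7 was its highest nodose type (8.59 ± 3.81, next NG6 at 8.53). Slc17a6, the vesicular glutamate transporter, was at 3.74 ± 1.26 against 2.68 ± 0.295 (0.34 ± 0.29), and the thrombin receptor F2r at 4.88 ± 0.760 against 2.76 ± 0.459 (0.64 ± 0.23). The nicotinic subunit Chrna3 was at -0.89 ± 0.34 (past the fold at -1.11 on summed UMIs and at -1.08 without sorted 2) and the cholecystokinin receptor Cckar at -0.54 ± 0.58. The intermediate filament gene Prph (-0.07 ± 0.10), the transcription factor Ebf1 (0.17 ± 0.06), Hoxb5 (0.06 ± 0.29) and the cannabinoid receptor Cnr1 (0.03 ± 0.03) lay close to the other nodose neurons. Of 17 dissociation and immediate early genes none was past the fold (list median 0.19, Jund 0.34 ± 0.31), and 5 of the 17 had their highest mean of all nodose types in NG7, beside 5.24% of all 9193 genes.

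The types most like NG7, by correlation of mean levels over the 9193 genes pooled over libraries, were NG9 (Pearson r = 0.965 across genes, 48 cells), NG11 (0.963, 104 cells) and NG14 (0.959, 259 cells). Genes are not independent replicates, and these r only order the types. In the 3 libraries with at least 10 cells of both types, 12 of 9119 genes were past the fold higher in NG7 than in NG9 (0.132%) and 14 lower (0.154%). Against NG11 the counts were 22 (0.242%) and 20 (0.22%) of 9087, and against NG14 they were 19 (0.208%) and 33 (0.361%) of 9145.

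Against NG9, NG7 stood out by its peptides. Gal was at 7.20 ± 1.31 against 0.0931 ± 0.0541 (2.90 ± 0.18), Itm2a at 6.63 ± 3.87 against 0.0687 ± 0.0423 (2.66 ± 0.90) and Tac1 at 5.83 ± 3.42 against 0.0693 ± 0.0692 (2.51 ± 0.87). Pcdh9 was also higher (2.38 ± 0.13), while Tmc3 was the same within its spread (-0.03 ± 0.09). Nrp2 was at 0.107 ± 0.0696 against 7.26 ± 2.08 (-2.87 ± 0.31). The presynaptic complexin Cplx2 (-1.54 ± 0.07) and Mt3 (-1.53 ± 0.34) came next among the lower genes.

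NG11 and NG14 differed from NG7 by other genes. Against NG11, Itm2a (2.61 ± 0.85), Tac1 (2.34 ± 1.03) and Pcdh9 (1.99 ± 0.21) were highest in the list. Lypd1, a modulator of nicotinic receptors, was at 3.45 ± 1.35 in NG7 and 31.4 ± 1.73 in NG11 (-2.91 ± 0.43), followed by Nrp2 (-2.67 ± 0.25) and the receptor phosphatase Ptprt (-1.89 ± 0.20). NG14 also held Gal, 5.71 ± 3.69 against 7.20 ± 1.31 (0.48 ± 0.88, within the spread). Its Gal level was close to that of NG7 in both sorted libraries and lower in unsorted 2. Tac1 was at 5.83 ± 3.42 in NG7 and 0.123 ± 0.0547 in NG14 (2.44 ± 0.91). Mef2c was at 5.28 ± 2.21 in NG7 and 0.198 ± 0.0264 in NG14 (2.34 ± 0.48), and Pcdh9 at 6.97 ± 0.122 and 0.935 ± 0.170 (2.04 ± 0.12). Fstl1 was at 3.30 ± 1.19 in NG7 and 28.2 ± 4.09 in NG14 (-2.79 ± 0.22), and Fxyd2 (-2.19 ± 0.18) and S100a6, a calcium-binding protein (-2.03 ± 0.35), were also lower.

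NG7 of the sorted libraries was then compared with NG7 of the unsorted ones. Both sides of this contrast carry the same cluster name and differ by library kind, which the labels give, so it was tested, with limma on the 4 library profiles and Benjamini-Hochberg adjustment over 9227 genes. Calls needed a log2 difference of at least 1 beside an adjusted p under 0.05, and 64 genes were higher in the sorted libraries (0.694%) and 52 lower (0.564%). The sort, the mouse line and the preparation go together and cannot be told apart. The counts rest on single libraries: without unsorted 2 limma called 0 higher and 1 lower gene (1590 genes had an unadjusted p under 0.05), without sorted 1 it called 7 and 3, and without sorted 2 it called 44 and 25. Without unsorted 1, the library with 7 NG7 cells, it called 75 and 56.

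Of the markers, Tmc3 and Tac1 were called higher in the sorted libraries and Gal and Pcdh9 were not. Tmc3 differed by 1.46 (SE 0.19, adjusted p = 2.14e-05 by limma) and Tac1 by 1.24 (SE 0.21, adjusted p = 0.000376 by limma), both higher in 2 of 2 sorted libraries than in either unsorted one. Tac1 lost its call without unsorted 2 (0.87, adjusted p = 0.117 by limma), sorted 1 (1.20, 0.164) or sorted 2 (1.27, 0.104), and Tmc3 without unsorted 2 (1.33, 0.10) or sorted 1 (1.27, 0.0929). Without the highest cell of each library, as given above, Tac1 was at 1.46 and 1.52 in the unsorted and at 2.01 and 4.52 in the sorted libraries. Gal differed by 0.61 (SE 0.22, adjusted p = 0.0908 by limma) and reached a call only with limma-voom on summed UMIs (1.05, adjusted p = 0.0132). Pcdh9 differed by 0.15 (SE 0.19, adjusted p = 0.674 by limma).

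The genes that rose most were H2-D1, a class I histocompatibility gene (0.283 and 0.233 per 10000 in the unsorted, 5.05 and 3.28 in the sorted libraries, log2 difference 2.02, SE 0.17), Resp18, a dense-core vesicle protein (1.95 and 1.31 against 9.83 and 8.83, 1.98, SE 0.18), the lysosomal protease gene Lgmn (1.96, SE 0.17) and the actin-binding Pfn1 (1.88, SE 0.17). The genes that fell most were the glial lipoprotein gene Apoe (35.5 and 17.0 against 0.445 and 0.369, -4.19, SE 0.23), the glial fatty acid carrier Fabp7 (-2.03, SE 0.17), Vps8 (-1.99, SE 0.39) and Basp1, a growth cone protein (-1.91, SE 0.20). The adjusted p of these 8 genes was at most 0.00182 by limma with all 4 libraries, and none but Apoe was called without unsorted 2. Their log2 differences without unsorted 2 were 1.99 for H2-D1, 1.80 for Resp18, 1.98 for Lgmn and 1.71 for Pfn1. For the genes that fell they were -4.70 for Apoe, -2.29 for Fabp7, -0.79 for Vps8 and -1.69 for Basp1. Vps8 was uneven within the unsorted pair, at 1.51 and 12.3 per 10000. In the other nodose neurons of the same libraries, H2-D1 was at 1.11 and 0.823 in the unsorted and 4.79 and 3.72 in the sorted libraries, Vps8 at 1.58 and 11.4 against 0.402 and 0.637, and Apoe at 19.6 and 18.4 against 2.01 and 0.700.

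Among the lists, 2 of 11 neuropeptide genes rose (Tac1 and Vip) and none fell, with a list median of 0.47 against -0.01 over all genes tested. Of 15 peptide processing and dense-core vesicle genes, Scg5, Vgf, Chga and Pcsk1, which serve the making and storing of peptides, rose and Dbi fell. Scg5 was at 1.55 and 1.32 in the unsorted and 6.42 and 5.43 in the sorted libraries (1.51, SE 0.17), and Vgf at 0.753 and 1.15 against 4.79 and 4.08 (1.48, SE 0.17). No NG7 value of the unsorted libraries reached a sorted one for either gene. The other nodose neurons were also higher in the sorted libraries, with Scg5 at 1.39 and 1.39 against 2.94 and 3.11, Vgf at 0.857 and 0.792 against 2.12 and 2.24, and Resp18 at 1.41 and 0.862 against 3.52 and 4.23. The NG7 difference itself grew by 0.75 for Scg5, 0.68 for Vgf and 0.79 for Resp18 (adjusted p = 0.0138, 0.0381 and 0.0123 by limma), under the fold of 1 that a call needed, and none of the 16 genes of this list tested for that change was called. Of 5 satellite glial markers, Apoe and Fabp7 fell and none rose (median -0.70). Tmc3 was the 1 call among 8 mechanosensitive and acid-sensing channels, and 20 of the 23 functional lists held none. For the change of the NG7 difference, none of 92 ribosomal protein genes, counted after the values were seen, was called (median -0.27). In NG7 itself, 35 of the 92 fell and none rose (median -0.85), beside 0.564% of all genes tested that fell. Without unsorted 2, Apoe was the only call in any of these lists. Without sorted 1, no ribosomal protein gene was called, nor Tac1, Tmc3, Scg5 or Vgf, while Chga, Apoe and Fabp7 were.

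**Figure D4:**
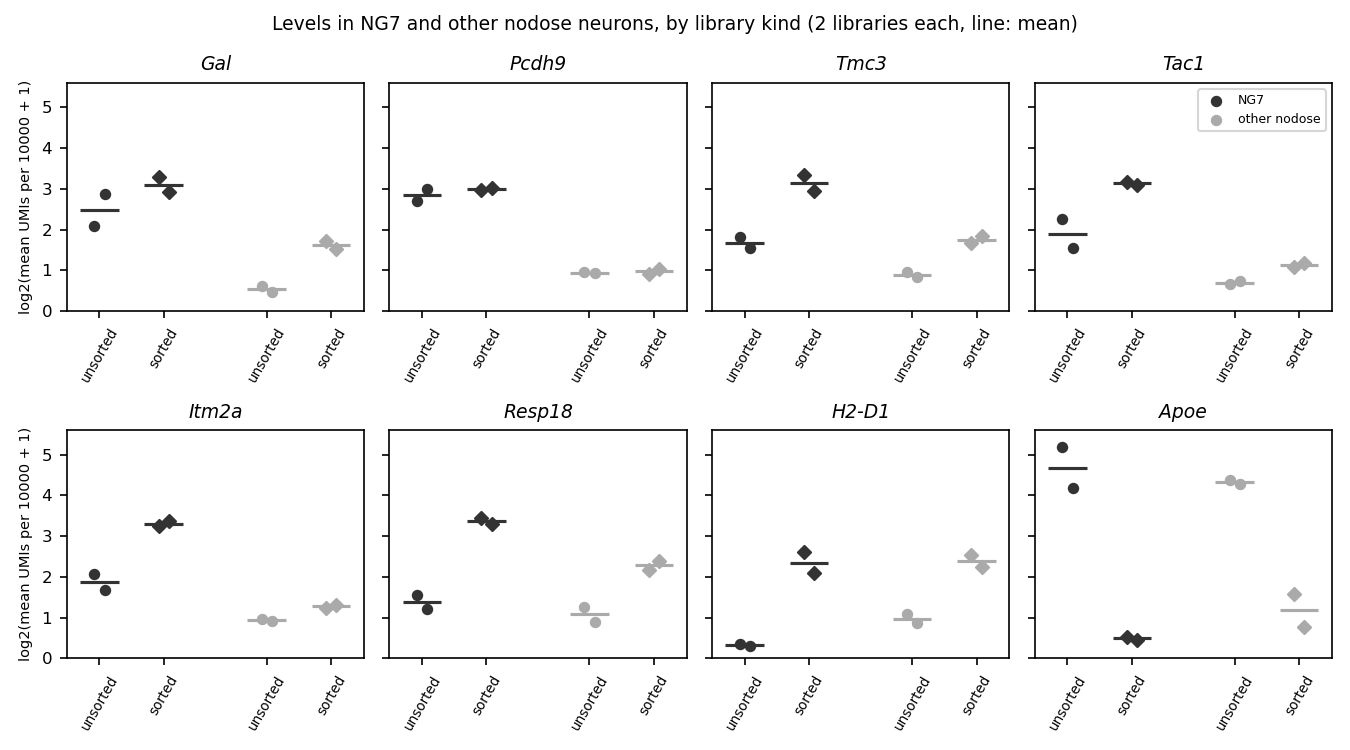
Levels in NG7 (dark) and other nodose neurons (grey) in the 2 unsorted (circles) and 2 sorted libraries (diamonds), as log2(mean UMIs per 10000 + 1), with lines at the mean. Pcdh9 differs by 0.15 between library kinds in NG7, Itm2a differs more in NG7 than in the others, and Apoe is low in both sorted libraries.

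Last, the difference between NG7 and the other nodose neurons was itself compared between library kinds, which asks whether a gene changed more in NG7 than in its neighbours. Of 9742 genes limma called 3 with a larger difference in the sorted libraries (0.0308%) and 2 with a smaller one (0.0205%). Itm2a exceeded the other nodose neurons by 2.03 on the log2 scale in the sorted and by 0.94 in the unsorted libraries, a change of 1.09 (SE 0.15, adjusted p = 0.00057 by limma). Rsad2, an interferon-induced antiviral gene, was at 0.0307, 0.0155, 1.17 and 1.32 per 10000 in NG7 and at 0.0792, 0.134, 0.185 and 0.158 in the others (1.05, SE 0.13, adjusted p = 0.00015 by limma). Crtac1, a matrix protein gene, was at 0.982, 2.59, 5.16 and 8.42 against 2.22, 2.26, 3.65 and 3.45 (1.03, SE 0.22, adjusted p = 0.029 by limma). In the other direction, Xist, the RNA of the inactive X chromosome, was at 5.11, 3.85, 2.49 and 0.0178 against 1.68, 1.71, 1.45 and 0.895 (-1.21, SE 0.26, adjusted p = 0.036 by limma). Apoe changed by -1.05 (SE 0.23, adjusted p = 0.0361 by limma), beside satellite glial sums that were 41.0 and 21.1 in unsorted and under 1 in sorted NG7, whose part in the result was not tested.

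These calls depended on the filter and on single libraries. None of the 5 was called without the filter on low genes, where the smallest adjusted p by limma was 0.487 and 1533 genes had an unadjusted p under 0.05. Crtac1 was at 0.61 without unsorted 1 and 0.69 without sorted 2, Xist at -0.50 without sorted 2, Apoe at -0.58 without unsorted 1 and -0.67 without sorted 1, Itm2a at 0.91 without unsorted 2, and Rsad2 at 0.98 without sorted 2. Leaving out unsorted 1 gave 11 and 0 calls, unsorted 2 gave 7 and 2, sorted 1 gave 7 and 3, and sorted 2 gave 2 and 2. Among the markers, Tac1 changed by 0.81 (SE 0.19, adjusted p = 0.0449 by limma, under the fold of 1), Tmc3 by 0.60 (SE 0.16, adjusted p = 0.0961), Gal by -0.47 (SE 0.20, adjusted p = 0.335) and Pcdh9 by 0.12 (SE 0.14, adjusted p = 0.787), the last with an NG7 difference of 1.90 in unsorted and 2.02 in sorted libraries. Tac1 was called without unsorted 1 (1.21, adjusted p = 8.16e-05 by limma) and on summed UMIs (1.59, adjusted p = 0.000193).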

How the data were processed

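Per the labels' protocols, papain, then collagenase with dispase, freed the cells, and libraries were made with a 10x Genomics 3' kit. The submitters' processing notes name Cell Ranger 2.1.1, Seurat and mm10; how cells were filtered and clustered is not given in the sources used here. Expression was deposited by the authors for 17289 genes on a natural log scale, as ln(1 + x) with x the UMIs per 10000 in a cell. The log was undone, and 100% of non-zero values were whole UMIs within 0.01. The authors also deposited the UMI count and gene count of each cell, the mitochondrial share as a fraction, the library and the cluster name. Annotated UMI counts, used for medians of cells, exceed those read back by a median of 5.

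Linear values were averaged per library and cell group, and compared as log2(mean + 1). Descriptions of NG7 used libraries with at least 10 NG7 cells, tests those with at least 5. Genes needed a mean above 0.1 per 10000 in either group. Past the fold means a mean difference of at least 1 with the same sign in each library used. Tests were made with limma 3.58.1 (R 4.3.3) with a mean-variance trend, two-sided, with Benjamini-Hochberg adjustment over all genes kept. They were also run on simulated library totals drawn without single cells, which does not show their error rate on these data. All cells were kept, without a doublet caller. Named genes are the 4 markers, the 8 largest differences in each direction, up to 3 genes past the fold per list and direction (otherwise the member with the highest NG7 level), the 4 largest calls in each direction of each test, and the 3 largest differences against each like type. The members, markers and lists were chosen with earlier results of these data known. A marker gene each of the nodose and satellite glial lists is not reported here and was left out of their sums and counts. Promoters are RefSeq windows, positions GENCODE vM21.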

Additional observations from a re-analysis of the deposited data

Results flagged for a closer look

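The difference between NG7 and the other nodose neurons changed between library kinds for 5 genes, by the limma test of that change itself. Sorted minus unsorted, it was 1.09 for Itm2a, 1.05 for Rsad2 and 1.03 for Crtac1, and -1.05 for Apoe and -1.21 for Xist. All 5 were uncalled when low genes were not filtered. Itm2a and Rsad2 are higher in NG7 of both sorted libraries than in either unsorted one, and Xist is near 0 in NG7 of sorted 2 alone (0.0178 per 10000). The labels used here do not give the sex of the mice, so the part of sex in the Xist values was not tested. The groups of 2 libraries are too small to test single libraries as outliers.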

How the results depend on the processing

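The 14 higher and 33 lower genes of NG7 became 142 and 345 with a pseudocount of 0.1, and 7 higher against other nodose neurons of like depth, an alternative chosen after seeing the data (22 lower). With each library left out in turn they ranged from 14 to 17 and from 33 to 42. Shares of NG7 cells with a UMI at 5000 UMIs per cell were 56.1% for Gal, 31.6% for Tac1, 91.2% for Pcdh9 and 68.4% for Tmc3, which was at 80.4% at 10000 UMIs. For sorted against unsorted NG7, the calls were 317 higher and 224 lower by limma-voom, 328 and 285 at the smaller pseudocount of 0.1, and 55 and 26 on summed UMIs; leaving out a library gave 0 to 75 and 1 to 56. For the change of the NG7 difference between library kinds, they were 21 and 10 with a pseudocount of 0.1, 0 and 0 without a filter on low genes, 11 and 0 with a minimum of 10 cells, 1 and 1 on summed UMIs and 2 and 0 without the trend, and 2 to 11 and 0 to 3 when a library was left out. The cause of these shifts was not tested, except that a smaller pseudocount widens differences of low genes by construction. Among values for single named genes, 681 kept their call or moved by less than their spread, 60 moved further, 40 lost and 5 gained a call, and no called one changed direction. No paired analysis was possible because the replicate numbers of the libraries only name them. With 57 cells and 2 libraries a group, small differences can be missed. At an adjusted p under 0.05 by limma, 395 genes were higher and 385 lower in sorted NG7 at any size of difference. Those with a difference under 1 were left uncalled by the fold rule.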

Other observations

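Just inside the fold used to describe NG7 lay Malat1 (1.04), Stmn4 (1.04) and Ntng1 (1.06), and just outside it Dner (0.98), Laptm4b (0.98) and Tmem255b (0.97). The median mitochondrial share of NG7 cells was 6.15%, 7.10%, 5.76% and 8.42% in unsorted 1, unsorted 2, sorted 1 and sorted 2, against 7.91%, 7.62%, 6.87% and 8.34% in the other nodose neurons. All 4 markers were found together in 22 of 57 NG7 cells (38.6%) and in 92 of 1402 other nodose neurons (6.56%), and after thinning to 10000 UMIs in 15 of 56 (26.8%) and 2 of 1385 (0.144%). Since the clusters were drawn from these transcripts, these shares are a description. The jugular types JG4 (58.4 ± 46.5 per 10000) and JG6 (22.4 ± 13.1) carried more Tac1 than NG7 on average over 4 libraries. So did JG3 (12.3 ± 11.6) and JG5 (8.28 ± 9.18), within their spreads. Sympathetic neurons, present in the unsorted libraries only, had Gal at 12.2 and 16.7, above NG7 in both. JG4 had more Gal than NG7 on average (9.26 ± 8.77), within its spread. By library, JG4 was above NG7 for Gal in the sorted libraries only.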
